A study of Mus musculus with 24 samples.

Results

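Peaks of open chromatin at 9 genes of macrophages and other leukocytes were followed through 4 hindlimb muscles of adult and late embryonic mice. The genes were Spi1, Csf1r, Cx3cr1, Ptprc, Itgam, Adgre1, Mrc1, Cd68 and Lyve1. They were given as a list of names, and the rule that assigns regions to them uses positions only. The peaks of all lists were merged into regions, those with a call in 2 or more libraries were retained, and each region that overlapped a gene body or the 10 kb on either side of it was taken. This gave 151 distinct regions of 459616 in the genome, at 9 genes of 34610 annotated.

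The assay was ATAC-seq, in which the transposase Tn5 cuts accessible DNA and tags it for sequencing. Adult samples (P56 in the design text) and embryonic samples (E18.5, shortly before birth) came from male FVB/NJ mice, an inbred strain, and the labels name no engineered allele or treatment. Soleus and vastus intermedius are slow-biased muscles, and gastrocnemius and vastus lateralis are fast-biased ones. Each of the 8 combinations of stage and muscle had 3 libraries, 24 in all. The animal protocol gives an age of 3 to 4 months at which adult mice were obtained, which does not match P56. One adult animal gave all 4 muscles of an adult replicate, and 1 litter gave all 4 of an E18.5 replicate, with up to 5 male embryos pooled. Nuclei were taken from whole undigested muscle, so a library mixes fibres with every other cell of the tissue.

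Macrophages live in the connective tissue between muscle fibres, where they clear debris and signal to satellite cells and fibroblasts. Their identity is set by the transcription factor PU.1, the product of Spi1, which binds purine-rich sites and holds the enhancers of myeloid genes open. Survival depends on the CSF1 receptor, and resident cells of many tissues are known by the scavenging receptors MRC1 and LYVE1.

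The promoter windows of 5 of the 9 genes could be read, 250 bases before to 50 after the annotated start (RefSeq, GRCm38.p6, the assembly of mm10). They are printed because they show what the promoters of leukocyte genes that are seldom called in muscle look like, and because some of them hold the letters that PU.1 prefers. Capitals mark GAGGAA or its reverse complement TTCCTC. The windows are chr2:14229164-14229463 on the plus strand (Mrc1), chr11:69666121-69666420 on the minus strand (Cd68), chr9:120068247-120068546 on the minus strand (Cx3cr1), chr7:128062390-128062689 on the plus strand (Itgam) and chr1:138175256-138175555 on the minus strand (Ptprc, the first of its 2 windows). The sequences, 5′ to 3′, are the following.
Mrc1: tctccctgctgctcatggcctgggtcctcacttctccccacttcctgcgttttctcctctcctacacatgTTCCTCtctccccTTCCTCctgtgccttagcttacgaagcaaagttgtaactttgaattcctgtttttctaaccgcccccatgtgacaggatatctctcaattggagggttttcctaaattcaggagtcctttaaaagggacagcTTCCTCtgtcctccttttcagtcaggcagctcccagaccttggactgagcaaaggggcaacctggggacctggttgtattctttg
Cd68: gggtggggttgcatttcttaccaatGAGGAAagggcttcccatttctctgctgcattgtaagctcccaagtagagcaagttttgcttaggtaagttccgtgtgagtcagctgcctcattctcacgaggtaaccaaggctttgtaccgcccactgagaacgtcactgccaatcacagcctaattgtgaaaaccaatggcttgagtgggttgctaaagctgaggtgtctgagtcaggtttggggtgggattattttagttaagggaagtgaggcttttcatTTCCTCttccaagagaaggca
Cx3cr1: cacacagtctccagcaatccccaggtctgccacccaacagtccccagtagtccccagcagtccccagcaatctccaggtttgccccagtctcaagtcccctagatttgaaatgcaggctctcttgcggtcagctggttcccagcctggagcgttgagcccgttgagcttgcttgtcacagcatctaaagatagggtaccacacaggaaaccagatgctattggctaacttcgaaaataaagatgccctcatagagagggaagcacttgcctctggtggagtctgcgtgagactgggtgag
Itgam: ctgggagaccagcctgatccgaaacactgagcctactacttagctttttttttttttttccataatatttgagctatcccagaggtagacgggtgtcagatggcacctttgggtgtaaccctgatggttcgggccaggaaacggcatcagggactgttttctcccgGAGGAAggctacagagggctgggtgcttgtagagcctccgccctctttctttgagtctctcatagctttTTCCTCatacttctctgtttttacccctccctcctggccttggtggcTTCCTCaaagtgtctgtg
Ptprc: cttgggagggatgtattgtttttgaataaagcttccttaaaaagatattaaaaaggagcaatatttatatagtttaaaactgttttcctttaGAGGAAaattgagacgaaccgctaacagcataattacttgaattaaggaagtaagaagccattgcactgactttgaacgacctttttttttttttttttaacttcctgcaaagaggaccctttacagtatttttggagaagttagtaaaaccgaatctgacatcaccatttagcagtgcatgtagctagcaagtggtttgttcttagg

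The GAGGAA letters occurred 3 times in the Mrc1 window, 3 times in the Itgam window, 2 times in the Cd68 window and 1 time in the Ptprc window, on either strand. The Cx3cr1 window and the second Ptprc window held 0. Of all 32851 RefSeq windows of this length, 28.3% held a match. The nearest match before the Mrc1 start began 35 bases upstream of it, and the nearest before the Itgam start 15 bases upstream. Other motifs were rarer. TGTGGT, the letters of RUNX factors, occurred 1 time in the Cx3cr1 window and in 16.8% of all windows. TGANTCA, the letters of AP-1, occurred 2 times in the Cd68 window and in 7.81% of all windows. TTGCNNAA, the letters of C/EBP factors, occurred 1 time in the Cd68 window and in 10.8% of all. TATAAA occurred 1 time in the first Ptprc window and in 13.6% of all. The other windows of these genes held 0 of each of those 4 motifs. A match is a run of letters, not a binding site.

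These windows were called in few of the 12 libraries of each stage, and all counts by stage that follow are out of 12. The Mrc1 window overlapped a peak in 5 adult and 2 E18.5 libraries. The Cx3cr1 window did so in 4 adult and 0 E18.5 libraries. For Cd68 the counts were 1 adult and 4 E18.5 libraries. Itgam was called in 1 adult and 0 E18.5 libraries, and neither Ptprc window in any library. Over the 27025 genes with a window, the median was 4 adult and 7 E18.5 libraries, 32.4% of genes were called in all 24 libraries and 23.8% in none.

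A call is a yes or no per library, since the lists hold positions without scores. A region without a call need not be closed, and in whole muscle fewer cells of a type and a weaker signal per cell cannot be told apart. The number of reads is not given here; list length stood in for it. Lists ran from 115333 to 228137 peaks, with means of 166593 in adult samples and 167856 in E18.5 ones, and of 153684 in adult slow-biased against 179502 in adult fast-biased libraries. The libraries called between 26 and 67 of the 151 regions. At 8 genes of muscle fibres, 51 of 176 tested regions were adult-higher (called in more adult libraries, past the test given below) and 3 E18.5-higher, among them 33 and 1 at Ttn (titin, the giant spring protein of the sarcomere). Those are values between the stages, and the muscle named for each library was not checked by them.

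Regions called in few libraries were no more common at these genes than elsewhere. Of the 151, 61 (40.4%) were called in only 2 or 3 libraries, against 45.2% of all regions. Calls in all 24 libraries were made at 5 regions (3.31%), against 3.98% of all regions, and 2 of those 5 lay more than 1 kb from any other gene. These 2 overlapped the bodies of Mrc1 and Spi1. Gene bodies held 96 regions. Within 1 kb of another gene lay 30, so a call there may belong to the neighbour. The median region was 881 bp wide, against 745 bp over the genome. Exons, introns and UTRs were not told apart, because the gene table used gives starts and ends only.

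The first question was whether these loci were more often open in the adult or before birth. Regions at 8 of the 9 genes were called in a smaller share of adult than of E18.5 libraries, and Ptprc was the exception. Averaged over regions and then over the 9 genes, the share was 31.1% in adult samples and 37.2% in E18.5 ones, a difference of -6.16 points. It was -10.2 points over regions called in 4 or more libraries and -2.82 points with the first 57666 peaks of each list in file order, an order whose meaning is not stated. By animal the adult shares were 27.9%, 34.7% and 30.7%, and by litter the E18.5 shares were 39.1%, 40.5% and 32.2%. Adult animal 2 lay above litter 3, so the stages overlapped in these shares, which were not scaled to list length. Called regions per 100000 listed peaks were also averaged over the 9 genes in each library. By adult animal they ran from 2.16 to 2.74, 2.67 to 3.13 and 2.83 to 3.3. By litter they ran from 3.43 to 3.73, 3.15 to 3.79 and 3.05 to 3.63. On this scale the mean of every adult animal lay below that of every litter, while single libraries overlapped. Loci in general leaned the same way: 61.4% of the 32823 loci with a region were lower in the adult, with a median difference of -2.78 points, against a median of -6.14 for the 9 genes. No test was made of a score over the list.

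**Figure D1:**
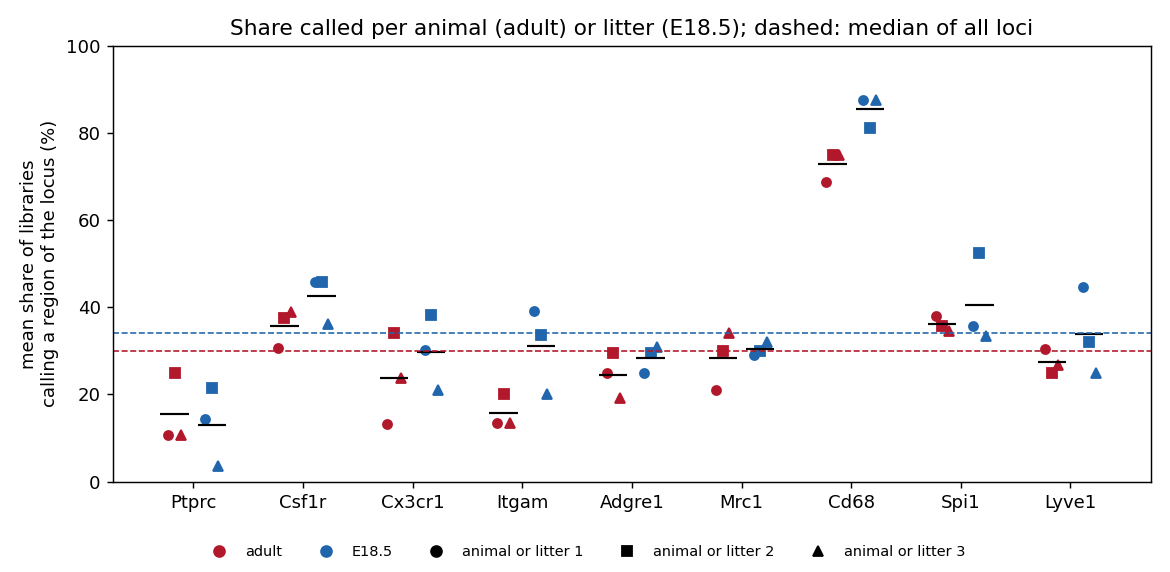
Mean share of libraries (%) calling a region of each locus, per adult animal (red) and per litter (blue); black bars are means of 3 and dashed lines the medians of all loci. Adult shares lie below E18.5 shares on average at every gene except Ptprc. Only at Cd68 do the points of the stages neither overlap nor touch, in shares that are not scaled to list length.

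Region by region, 61 of the 151 were called in a number of libraries that could give an unadjusted p under 0.05, and these were tested. The number of libraries calling each was compared with Fisher's exact test (two-sided), with Benjamini-Hochberg adjustment over 170267 regions of the genome. Called more often at E18.5 past an adjusted p of 0.05 were 2 of 61, against 4.55% of all regions tested. Called more often in the adult were 0 of 61, against 1.55%. At an unadjusted p under 0.05 there were 10 of 61 for E18.5, against 14.3%, and 3 of 61 for the adult, against 5.31%. Neither count of adjusted calls was above the background. Libraries of 1 animal are not independent, so these p-values are too small.

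Both regions past the threshold lay in the body of Mrc1, which encodes the mannose receptor, an endocytic receptor of tissue macrophages. The region chr2:14278974-14280073, 50.1 kb into the gene, was called in 0 adult and 12 E18.5 libraries (adjusted p = 0.000312, exact Fisher test). Only 0.174% of all regions tested had this complete split, and 1 of the 61 regions did. The region chr2:14237194-14238634, 8.5 kb into the gene, was called in 1 adult and 12 E18.5 libraries (adjusted p = 0.00113, exact Fisher test). The single adult call came from vastus lateralis of animal 3.

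Peak widths show how much of each region was called. In the region at 50.1 kb, peaks covered 897, 495 and 633 bases in E18.5 soleus, 590, 351 and 479 in E18.5 vastus intermedius, 560, 243 and 358 in E18.5 gastrocnemius and 518, 345 and 421 in E18.5 vastus lateralis, and 0 in every adult library. All 3 litters and all 4 muscles shared the call. In the region at 8.5 kb, the 12 E18.5 libraries had 222 to 1177 covered bases with a median of 727, and the 1 adult peak covered 1096. When a call required that peaks cover 50% of the region, the region at 8.5 kb had an adjusted p of 0.167 (exact Fisher test) and the other could no longer be tested. When 115333 peaks were drawn at random from each list, the adjusted p-values were 0.12 at 8.5 kb and 0.0777 at 50.1 kb (exact Fisher test). Such a draw removes calls from the longer lists whatever their signal.

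The rest of Mrc1 did not follow that split. The region chr2:14294887-14296858, 66.5 kb into the gene, was called in all 24 libraries, with a median of 1105 covered bases in the adult and 1013 at E18.5. At 58.9 kb the counts were 9 adult and 12 E18.5 libraries, and beyond the far end, at 112.6 kb, 11 adult and 12 E18.5 libraries. The region over the gene start, chr2:14228587-14229717, was called in 5 adult and 3 E18.5 libraries. Of the 25 Mrc1 regions, 4 were called in adult libraries alone and 3 at E18.5 alone. Over the 151 regions of the 9 genes the counts were 17 (11.3%) for the adult alone and 18 (11.9%) for E18.5 alone, against 14.9% of the genome's regions for the adult alone and 10.3% for E18.5 alone. Counted over the locus, adult libraries called 7.08 ± 1.66 regions and E18.5 libraries 7.58 ± 0.382 (SD of 3 animals or litters), a difference smaller than the spread between adult animals. No region of the Mrc1 locus lay within 1 kb of another gene.

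**Figure D2:**
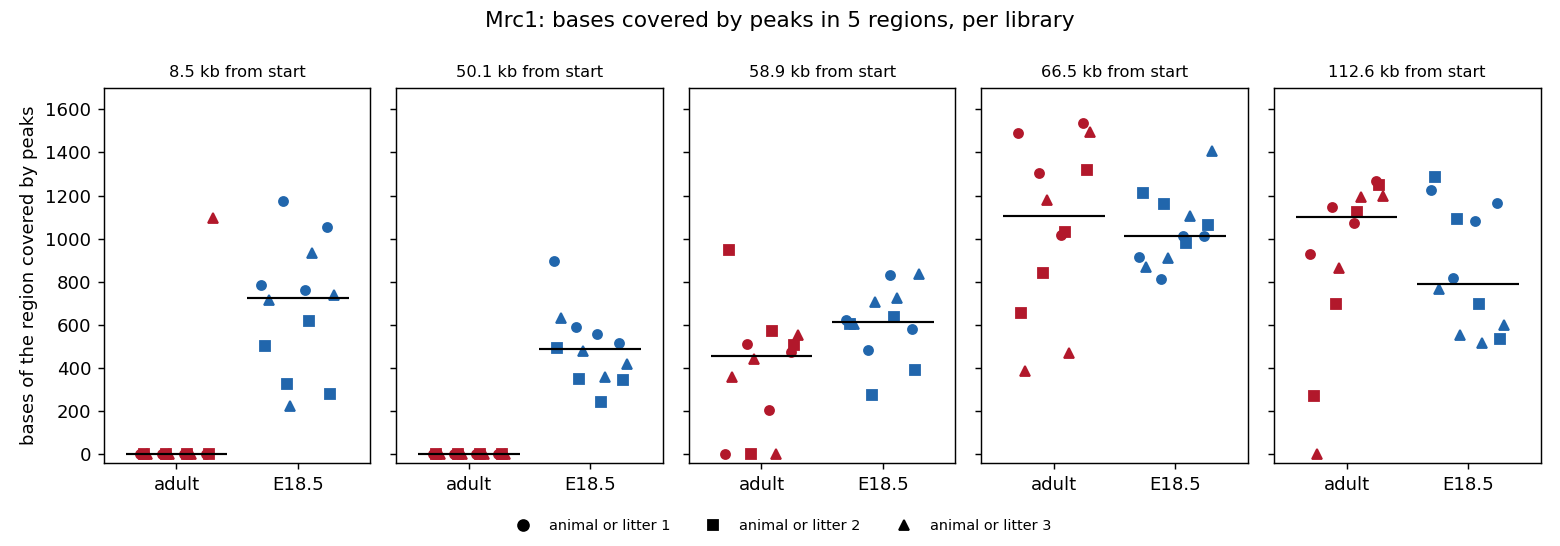
Bases covered by peaks in 5 regions of Mrc1, titled by their distance from the gene start, in 12 adult (red) and 12 E18.5 (blue) libraries; bars are medians with uncalled libraries at 0. At 8.5 and 50.1 kb the adult points sit at 0 but for 1 at 1096, while at 66.5 kb every library is covered.

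LYVE1 is a hyaluronan receptor of lymphatic endothelium and of a subset of tissue macrophages. Its 14 regions were called 3.83 ± 0.382 times per adult library and 4.75 ± 1.39 times per E18.5 library (SD, n = 3), with litters at 6.25, 4.5 and 3.5. Its region called in all 24 libraries, chr7:110843533-110844569, lies near Rnf141, a neighbour. The region chr7:110858713-110860531 inside the gene was called in 4 adult and 10 E18.5 libraries (adjusted p = 0.197, exact Fisher test). A region 1987 bp beyond the gene was called in 0 adult and 6 E18.5 libraries (adjusted p = 0.108, exact Fisher test). Neither passed the threshold. At the high-coordinate end, chr7:110862628-110864067 was called in 9 adult and 8 E18.5 libraries.

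CD68 is a lysosomal glycoprotein of phagocytes. The gene is short and lies among Sox15, Mpdu1, Eif4a1 and Senp3, and all 4 of its regions were within 1 kb of one of them. Of the 2 regions called in all 24 libraries, 1 overlapped Mpdu1 and also the low-coordinate end of Cd68, which is the end away from its start. The other overlapped Eif4a1 and lay within 1 kb of Senp3. The region over the Cd68 start, chr11:69665529-69666419, was called in 1 adult and 5 E18.5 libraries (adjusted p = 0.534, exact Fisher test). Counted over the locus, the 3 adult animals averaged 2.75, 3 and 3 called regions, against 3.5, 3.25 and 3.5 in the 3 litters. In these counts Cd68 was the 1 gene of 9 whose adult animals all lay below the litters, against 13.9% of all loci. The reverse order held for 0 of 9 genes, against 5.19% of loci. The counts are not scaled to list length. Per 100000 listed peaks the Cd68 animals averaged 1.76, 1.66 and 2, and the litters 2.16, 1.79 and 2.47, so they overlapped. On that scale Itgam, given below, had no overlap. With 3 against 3 no permutation p can go below 0.1.

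Spi1 had 21 regions, 4 of them called in 20 or more libraries. The region over its low-coordinate end, chr2:91081863-91085210, was called in 12 adult and 11 E18.5 libraries, and chr2:91114176-91116204 at its high-coordinate end in all 24. Median covered bases were 1463 in adult samples and 991 in E18.5 ones at the low end, and 772 in adult samples and 1020 in E18.5 ones at the high end. At 2958 bp outside the low end, chr2:91077858-91079416 was called in 7 adult and 12 E18.5 libraries (adjusted p = 0.197, exact Fisher test).

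That region differed more in the width of its peaks than in its calls. In the adult, peaks covered 0, 0 and 363 of its 1559 bases in soleus, 745, 0 and 0 in vastus intermedius, 640, 506 and 0 in gastrocnemius and 589, 462 and 491 in vastus lateralis. In E18.5 libraries the covered bases were 1031, 994 and 949 in soleus, 1080, 822 and 1066 in vastus intermedius, 1157, 823 and 1519 in gastrocnemius and 1032, 900 and 616 in vastus lateralis. Only the lowest E18.5 value lay within the adult range. With 50% cover needed for a call, the counts were 0 adult and 11 E18.5 libraries (adjusted p = 0.000574, exact Fisher test). Over the whole locus, called regions averaged 7.58 ± 0.382 in adult samples and 8.5 ± 2.18 in E18.5 ones (SD, n = 3), with litter 2 at 11 and the other litters at 7.5 and 7. Near Mybpc3, a gene of the heart sarcomere, lay 6 of the 21 regions.

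Csf1r, the receptor through which CSF1 and IL-34 sustain macrophages, had 18 regions, 10 of them within 1 kb of Hmgxb3 or the lncRNA Gm52352. Called regions averaged 6.42 ± 0.804 in adult samples and 7.67 ± 1.01 in E18.5 ones (SD, n = 3). Its most often called region, chr18:61107491-61109395, lies inside the gene, with its middle 2871 bp from the low-coordinate end, and was called in 12 adult and 11 E18.5 libraries. Covered bases there had a median of 800.5 in adult samples and 921 in E18.5 ones. The region over the low-coordinate end itself, chr18:61105567-61107350, was called in 3 adult and 10 E18.5 libraries (adjusted p = 0.108, exact Fisher test). At the other end, beside Hmgxb3, chr18:61131103-61132811 was called in 9 adult and 2 E18.5 libraries (adjusted p = 0.108, exact Fisher test). The ends of the gene thus leaned in opposite directions, and neither passed the threshold.

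Cx3cr1, the fractalkine receptor, which guides monocytes and marks some resident macrophages, had 19 regions. Libraries of the adult called 0 to 10 of them with a median of 4, and E18.5 libraries 2 to 9 with a median of 6. Animals averaged 2.5, 6.5 and 4.5 in the adult and litters 5.75, 7.25 and 4. The region over the start, chr9:120068259-120069048, was called in 5 adult and 0 E18.5 libraries (adjusted p = 0.197, exact Fisher test). A region 2987 bp outside the gene on the start side, chr9:120071283-120072451, was called in 2 adult and 10 E18.5 libraries (adjusted p = 0.0506, exact Fisher test), just short of the threshold. The lncRNA Gm33858 lies within 1 kb of both.

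Itgam encodes an integrin chain that myeloid cells use to adhere and to take up opsonised particles. It had the widest gap between stages in called regions of the 9 genes, -4 per library (adult minus E18.5). The gap was -7 to -2.25 under 12 of the 13 alternatives and the widest there too. With the first 57666 peaks of each list it was -0.25, and that of Mrc1 was wider at -1.08. Adult libraries called 1 to 7 of its 26 regions with a median of 4, and E18.5 libraries 3 to 14 with a median of 9. Adult animals averaged 3.5, 5.25 and 3.5 regions, against 10.2, 8.75 and 5.25 in the litters, so the highest animal equalled the lowest litter. Per 100000 listed peaks the animals averaged 1.98, 2.88 and 2.36 and the litters 5.97, 4.63 and 3.5, with no overlap. An Itgam region was called in a share of libraries that averaged 15.7% in adult samples and 31.1% in E18.5 ones. Of the 26 regions, 3 were called in the adult alone and 8 at E18.5 alone, where 14.9% of all regions in the genome were called in the adult alone and 10.3% at E18.5 alone.

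No single Itgam region passed the adjusted threshold. At the far end of the gene, 25 bp outside it, chr7:128118516-128120224 was called in 5 adult and 12 E18.5 libraries (adjusted p = 0.0566, exact Fisher test), with medians of 420 covered bases in calling adult libraries and 844.5 at E18.5. Animal 2 held 3 of the 5 adult calls. Without it the adjusted p was 0.03 (exact Fisher test), and the region passed in none of the other leave-outs of 1 animal or litter. A pair of regions inside the gene was called in 0 adult and 6 E18.5 libraries (adjusted p = 0.108, exact Fisher test) and in 1 adult and 7 E18.5 libraries (adjusted p = 0.19, exact Fisher test). The region called most often, chr7:128123501-128125010, stood at 10 adult and 10 E18.5 libraries. The region nearest to the start, 727 bp outside the gene, was called in 0 adult and 2 E18.5 libraries.

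Adgre1 encodes an adhesion receptor that marks mature mouse macrophages. Called regions averaged 4.17 ± 0.878 of 17 in adult samples and 4.83 ± 0.52 in E18.5 ones (SD, n = 3), and the difference was smaller than the spread between adult animals. Its most often called region, chr17:57373825-57374862 inside the gene, was called in 12 adult and 9 E18.5 libraries. The region at its low-coordinate end was called in 1 adult and 2 E18.5 libraries.

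Ptprc encodes the phosphatase CD45, found on all leukocytes. It was the least called locus, although it spans 133 kb with its flanks. It had 7 regions, 6 of them called in 2 or 3 libraries. Called regions averaged 1.08 ± 0.577 in adult samples and 0.917 ± 0.629 in E18.5 ones (SD, n = 3). Its most often called region, chr1:138104303-138105048 inside the gene, stood at 4 adult and 4 E18.5 libraries.

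**Figure D3:**
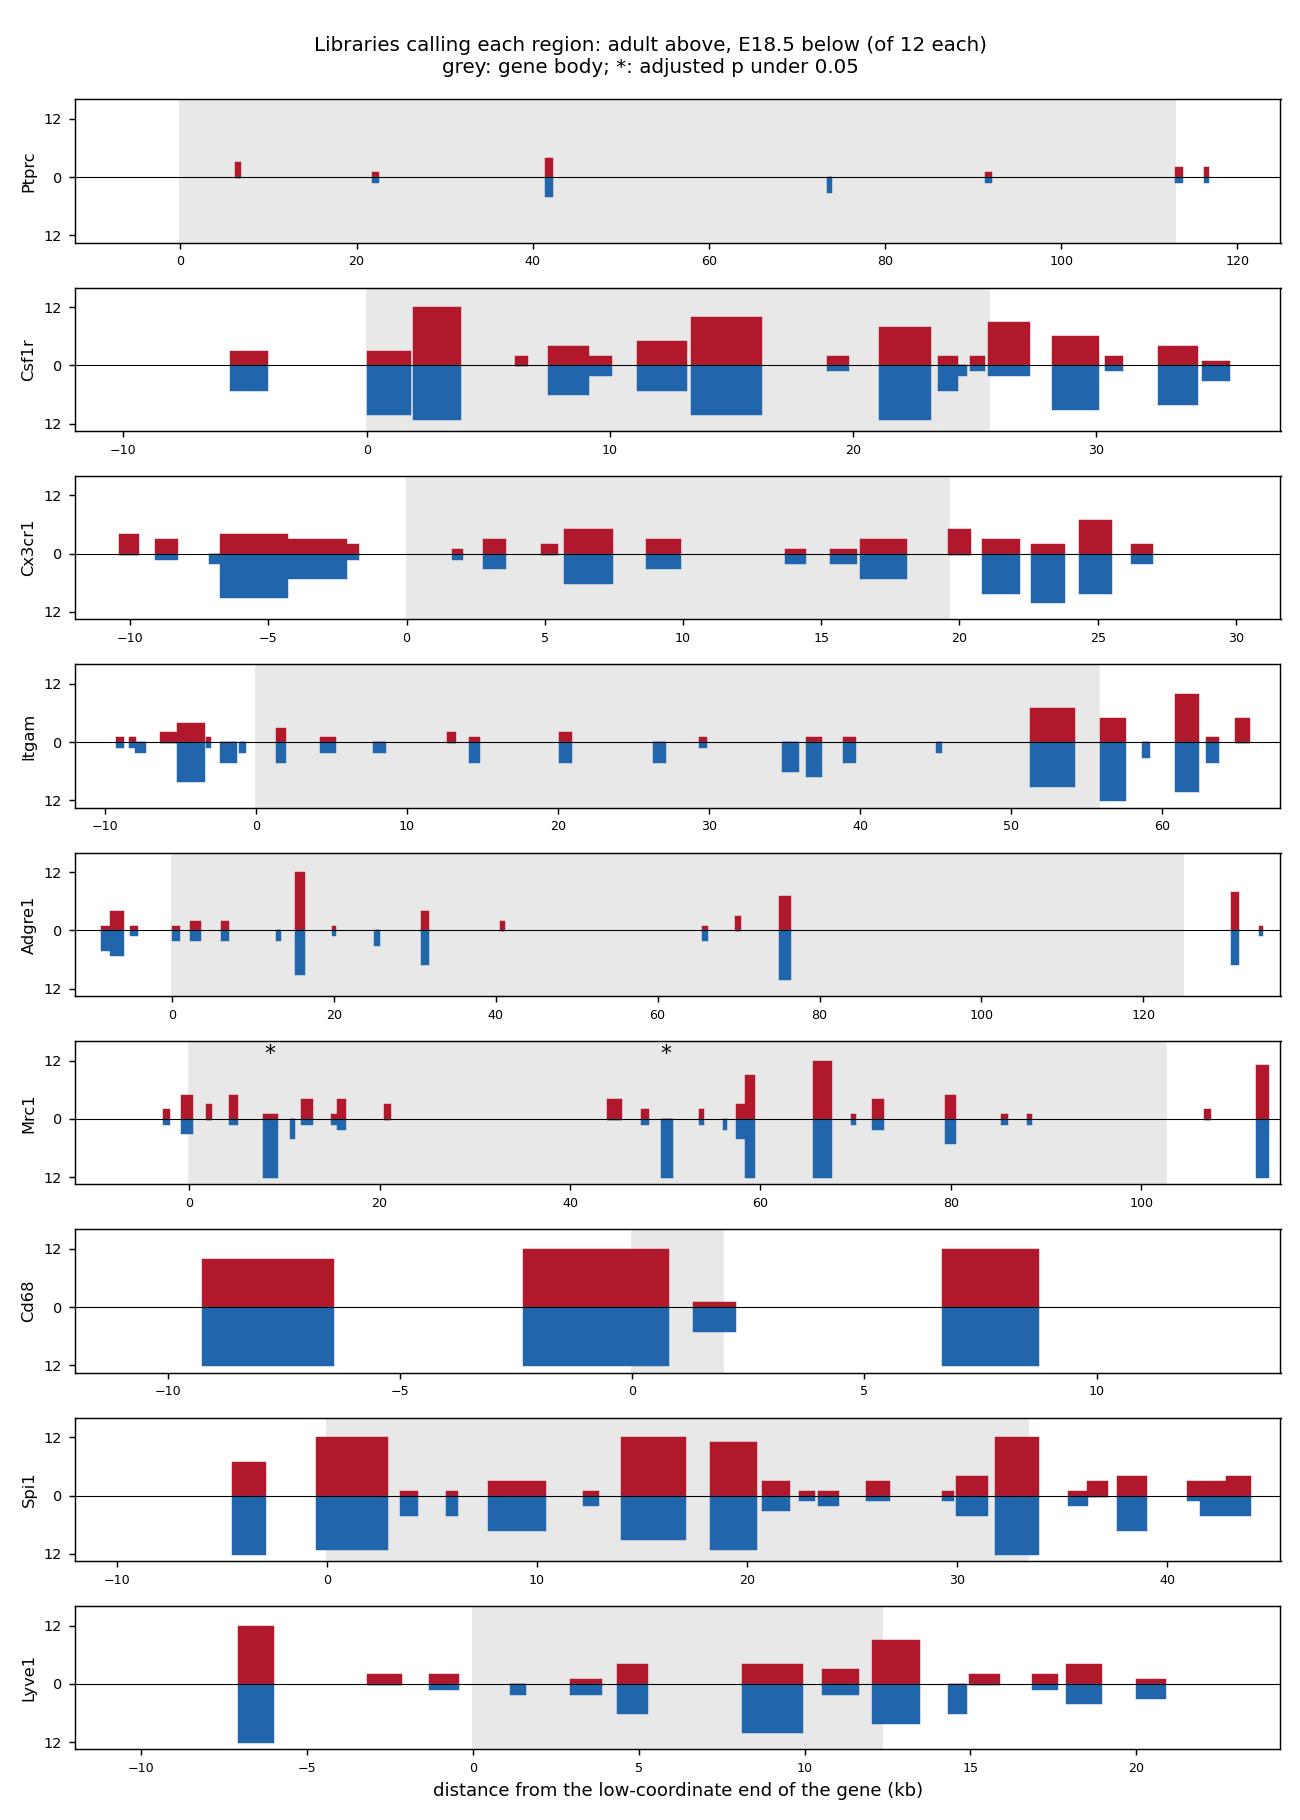
Libraries calling each region, adult (red, upward) and E18.5 (blue, downward), out of 12 each, by distance in kb from the low-coordinate end of each gene; grey is the gene body and stars mark an adjusted p under 0.05. The only stars are at Mrc1, 8.5 and 50.1 kb from its start, and Ptprc has no region called in more than 4 libraries of a stage.

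The second question was whether slow-biased and fast-biased muscles differed at these genes. No locus and no region passed an adjusted threshold at either stage. With 6 libraries against 6 the smallest possible p is 0.00216. After adjustment over the genome, no locus or region could pass by its own values alone. The absence of calls therefore does not show that the muscle classes were alike. In the adult, slow-biased libraries called fewer regions than fast-biased ones at 7 of 9 genes, with a median difference of -0.667 regions. Over all loci the share below was 66.3% and the median -0.333, and adult slow-biased lists were shorter. At E18.5 slow-biased libraries were again lower at 7 of 9 genes, with a median of -0.333, while 50.2% of all loci were lower and their median was -0.167.

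Cx3cr1 came nearest to a difference. At E18.5 the slow-biased libraries called 2, 7 and 2 regions in soleus and 6, 6 and 3 in vastus intermedius, and the fast-biased ones 8, 9 and 5 in gastrocnemius and 7, 7 and 6 in vastus lateralis. The averages were 4.33 regions for slow-biased libraries (range 2 to 7) and 7 for fast-biased libraries (range 5 to 9; n = 6 each, exact permutation p = 0.0606, two-sided, adjusted p = 1). Permuted within litters the p was 0.0185 (exact permutation, adjusted p = 1), and all 3 litters were lower in slow-biased muscles. In the adult the means were 3.33 ± 3.01 for slow-biased and 5.67 ± 2.58 for fast-biased libraries (SD), with 2 of 3 animals lower in slow-biased muscles (exact permutation p = 0.216, n = 6 each).

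Csf1r called regions averaged 5.33 ± 1.63 for the slow-biased muscles of the adult and 7.5 ± 2.26 for the fast-biased ones (SD, n = 6; exact permutation p = 0.121), and all 3 animals were lower in slow-biased muscles. At E18.5 its means were 7.17 ± 1.6 for slow-biased and 8.17 ± 1.17 for fast-biased libraries (exact permutation p = 0.329, n = 6 each). The other 7 genes had exact permutation p-values between 0.335 and 1 at both stages. Their animals or litters did not all lean the same way.

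Of the 32823 loci, 0% passed the adjusted threshold among adult libraries, and 0% among E18.5 ones. At an unadjusted p under 0.05 in the adult, 0 of 9 genes were slow-higher, against 0.308% of loci, and 0 of 9 fast-higher, against 6.82%. At E18.5 the counts were 0 of 9 slow-higher, against 0.253%, and 0 of 9 fast-higher, against 0.871%.

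Of single regions in the adult, 0 of 13 passed the adjusted threshold, against 0% of 48133 tested. Slow-higher at an unadjusted p under 0.05 was 1 of 13, against 0.472%, and fast-higher 0 of 13, against 2.88%. The 1 was at Itgam, chr7:128127445-128128412, 8954 bp beyond the gene, called by 5 of the 6 slow-biased adult libraries and by 0 of the 6 fast-biased ones (exact Fisher p = 0.0152) and in 0 of 12 E18.5 libraries. At E18.5, 0 of 18 regions passed the adjusted threshold, against 0% of 49905 tested. Slow-higher at an unadjusted p under 0.05 were 0 of 18, against 0.234%, and fast-higher 1 of 18, against 0.591%. That 1 was at Cx3cr1, chr9:120044368-120046478, 2205 bp beyond the gene, called by 0 of the 6 slow-biased E18.5 libraries and by 5 of the 6 fast-biased ones (exact Fisher p = 0.0152).

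**Figure D4:**
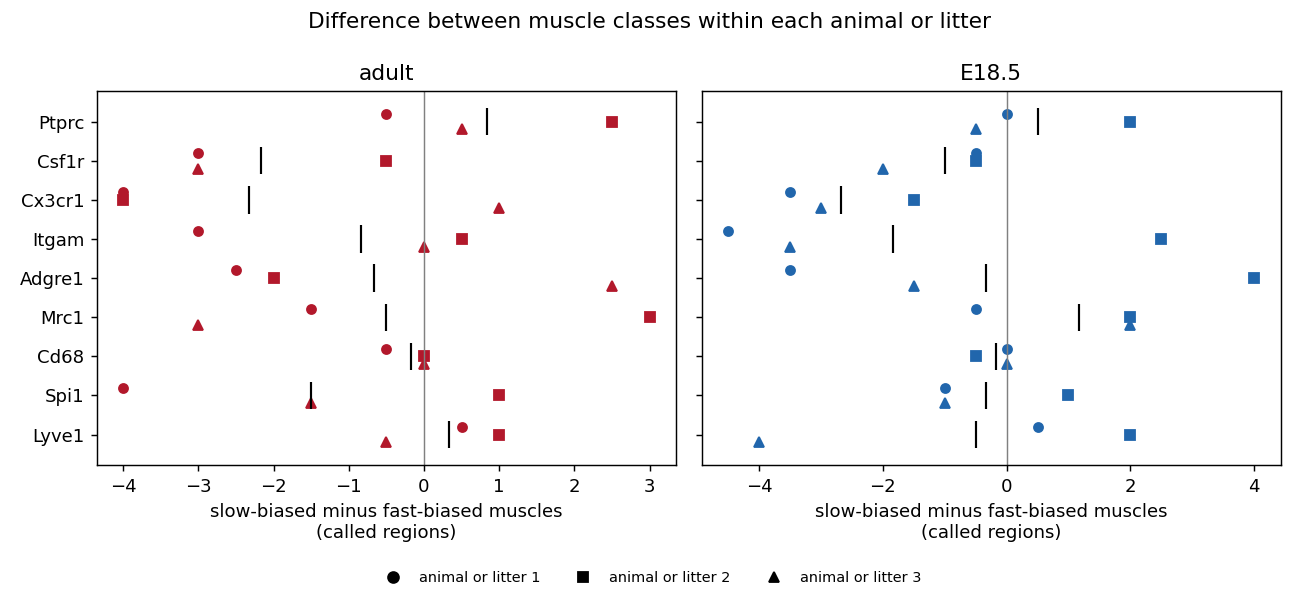
Slow-biased minus fast-biased muscles, in called regions per library, for each of 3 adult animals (left) and 3 litters (right); black bars are means. All 3 points lie below 0 for Csf1r at both stages and for Cx3cr1 at E18.5, in counts that are not scaled to list length.

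**Figure D5:**
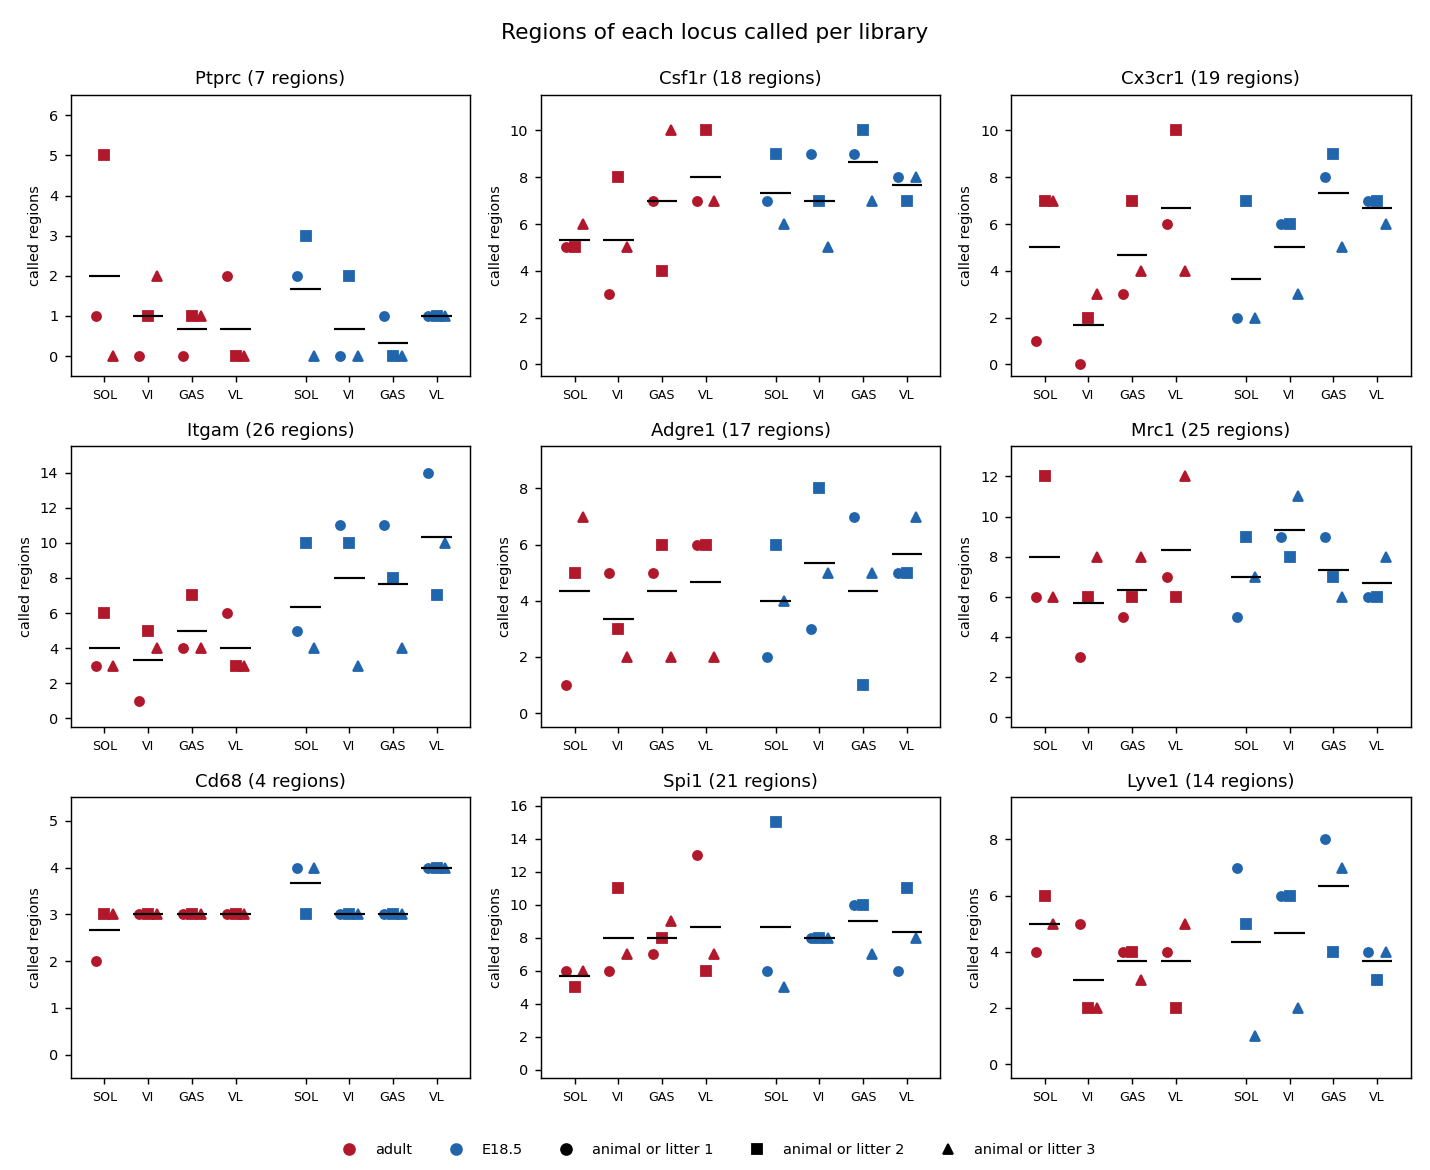
Called regions per library at each locus, adult (red) and E18.5 (blue), by muscle (SOL soleus, VI vastus intermedius, GAS gastrocnemius, VL vastus lateralis); bars are means of 3. Itgam reaches 14 in E18.5 vastus lateralis and at most 7 in the adult, and Cd68 stays between 2 and 4.

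Other genes of these cells, from lists drawn up for the purpose, were set beside the 9. In every list the counts stand against the 1.55% adult-higher and 4.55% E18.5-higher of all regions tested. Of 26 further macrophage and myeloid genes, 25 had a region, and of their 390 regions 135 were tested, with 0 adult-higher and 3 E18.5-higher ones (adjusted p under 0.05 in the same exact Fisher test). Those 3 were 2 at Dock2 (a guanine exchange factor of migrating leukocytes) and 1 at Mertk (a receptor for the uptake of dying cells). The median over these genes of the share called was 33% in adult samples and 36.1% in E18.5 ones. Their median difference was -1.39 points, with 8 genes higher and 15 lower in the adult. It was smaller than the -2.78 points of all loci and the -6.14 points of the 9 genes. Their 17 promoter windows were called in a median of 2 adult and 3 E18.5 libraries, and that of Mertk in all 24. Markers of macrophages with 0 calls at their windows at both stages were Cd163, Lyz2 and Clec7a.

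The 12 myeloid transcription factors had 3 adult-higher and 7 E18.5-higher regions of 131 tested, spread over Cebpb, Runx1, Zeb2 and Fli1. Their promoters were called in a median of 12 adult and 12 E18.5 libraries, and many of these factors also act outside leukocytes. The 14 lymphoid genes had 0 adult-higher and 0 E18.5-higher regions of 106 tested, with median shares of 22.5% in adult samples and 25% in E18.5 ones. The 8 granulocyte and mast cell genes also had 0 adult-higher and 0 E18.5-higher regions, of 30 tested, with median shares of 20.7% in adult samples and 30.6% in E18.5 ones. Median differences were -1.27 points for the transcription factors, -2.13 for the lymphoid genes and -7.89 for the granulocyte and mast cell genes. At the genes of the ligands, Csf1, Il34 and Cx3cl1, 0 of 27 tested regions were adult-higher and 1 was E18.5-higher, at Csf1.

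Genes of other cells in the tissue also had regions past the stage test, and their part in the result was not tested. Lymphatic endothelium, which shares Lyve1, had 0 adult-higher and 3 E18.5-higher regions of 53 tested, all at Pdpn, whose share was 27.1% in adult samples and 42.6% in E18.5 ones. The median share over its 5 genes was 27.1% in adult samples and 38.1% in E18.5 ones. Blood endothelium had 0 adult-higher regions and 1 E18.5-higher one of 101 tested, at Erg, with median shares of 30.1% in adult samples and 33.3% in E18.5 ones. Pericyte and fibroblast genes had 0 adult-higher and 4 E18.5-higher regions of 58 tested, 3 at Col1a2 and 1 at Col1a1, the chains of type I collagen. Their median share was 27.5% in adult samples and 43.9% in E18.5 ones, and the median difference of -9.6 points was wider than the -6.14 points of the 9 leukocyte genes. Of 5 erythroid genes 3 had a region, with 0 adult-higher and 0 E18.5-higher ones of 5 tested.

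Over the 24 libraries, the genes whose called regions per 100000 listed peaks tracked the mean of the 9 most closely were Cers3 (Pearson r = 0.852, Spearman rho = 0.84), Gm31986 (r = 0.842), Col26a1 (r = 0.835), Gm43380 (r = 0.831) and Ptgir, in that order, of 26777 genes compared. All 5 averaged fewer called regions in the adult than at E18.5, such as 7.42 in adult and 13.4 in E18.5 libraries for Cers3. The points share their libraries and list lengths and fall into 2 stages, so the coefficients are a description only.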

How the data were processed

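The values deposited by the authors are peak positions on mm10 (chromosome, start and end, with no other column), in a separate list for every library. Peaks were called per library. The submitters' processing notes name MACS2 2.1.1 and bedtools 2.25.0, besides Bowtie2 2.4.4, Trimmomatic 0.39.0, SAMtools 1.14.0, FastQC 0.11.5 and Picard. For the peak threshold and the Tn5 read shift, the setting was not given in the sources used here.

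Peaks on chromosomes 1 to 19, X and Y were merged where they overlapped or touched (930761 regions, of which 471145 were called in 1 library and left out). A library called a region with a peak overlapping it by 1 bp or more. Gene positions came from RefSeq (GRCm38.p6). Stages were compared per region with Fisher's exact test, 12 libraries against 12, and muscle classes within a stage with Fisher's exact test per region and an exact permutation test (two-sided) per locus, 6 against 6 (924 splits, smallest p 0.00216; within animals 216 splits, smallest p 0.00926). Benjamini-Hochberg adjustment ran over all regions that could reach an unadjusted p of 0.05, or all loci. The code was checked on simulated data. Python 3.11.15, NumPy 2.4.6, SciPy 1.17.1 and pandas 2.3.3 were used.

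Same-numbered muscles come from the same animal or litter, per the labels. The correlation of their deviations averaged 0.0127 in adult animals and 0.0541 in litters. The naming rule covered all 9 genes. Per locus it took regions past the threshold, at the gene ends, called in most libraries or with the largest difference. It also took listed genes with a region past the stage threshold. All 9 genes and both regions past the threshold are named, but some other regions and listed genes under the rule are not. Regions and promoter windows outside that rule were named after their values were seen. The genes and lists were chosen with earlier results of these data known.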

Additional observations from a re-analysis of the deposited data

Results flagged for a closer look

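In 36 groups of 6 libraries (9 genes, each stage and muscle class), 4 libraries lay far from the rest of their group in the number of called regions: the gap to the nearest library, divided by the range of the group, was above Dixon's critical value for a group of 6. Chance flags about 1 in 20 groups where values are continuous. These values are small counts with ties, and the rate for them was not tested. Where all other libraries tie, a library off by 1 is flagged. Adult soleus 1 called 2 Cd68 regions, where the other adult slow-biased libraries called 3. Adult vastus intermedius 2 called 11 Spi1 regions, above the other adult slow-biased libraries at 5 to 7. E18.5 soleus 2, the library with the longest list, called 15 Spi1 regions, above the other E18.5 slow-biased libraries at 5 to 8. E18.5 gastrocnemius 2 called 1 Adgre1 region, below the other E18.5 fast-biased libraries at 5 to 7. At 0 of the 9 genes did every adult animal and every litter lean in opposite directions between muscle classes.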

How the results depend on the processing

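The count of regions called more often at E18.5 was 2. It was 1 when peaks had to cover 50% of a region (the region outside Spi1 in place of those of Mrc1), 0 when 115333 peaks were drawn from each list, and 7 with flanks of 50 kb, where the adult count was 1. With the first 57666 peaks of each list in file order, an alternative chosen after seeing the data, it was 4 and the adult count 2. Besides both Mrc1 regions, the 4 held the Itgam region 25 bp outside the gene (adjusted p = 0.014, exact Fisher test). They also held the region outside Spi1, at 4 adult and 12 E18.5 libraries (adjusted p = 0.00753, exact Fisher test). Both adult-higher regions lay at Spi1, inside the region over its low-coordinate end. They were called in 6 adult and 0 E18.5 libraries and in 11 adult and 2 E18.5 libraries. The lists are not in position order, and what orders them is not stated. The drawn and first-peaks settings both use lists of equal length, with fewer peaks than were deposited. The draw was random, so it took calls out of every list longer than the shortest, whatever their signal. The drawn setting called neither Mrc1 region. The first-peaks one called both (adjusted p = 0.00277 at 8.5 kb and 0.000205 at 50.1 kb, exact Fisher test), and the cause of this difference was not tested. Stratified by muscle both Mrc1 regions were called (adjusted p = 0.00534 and 0.00479, exact conditional test). Leaving out 1 animal or litter in turn gave counts of 2 to 3, and 0 in the adult direction. The share over all regions was computed only for the setting reported above, so counts under the alternatives have no background beside them. The mean share difference was -6.16 points, -10.2 with regions called in 4 or more libraries, -2.82 with the first peaks and -9.62 to -4.94 with 1 animal or litter left out. Calls between muscle classes were 0 in every setting run, with 0 under the replicate block (permutation within animals or litters) at both stages. No locus or region of the genome passed in this comparison as reported, so these zeros say nothing about stability. In sign, Csf1r, Itgam and Adgre1 held under all 13 alternatives, and Ptprc under 7. Of the values of single genes and regions under an alternative, 127 kept their call or stayed within the spread between animals, 12 moved by more and 3 lost the call. This tally leaves out the Mrc1 region at 50.1 kb with 50% cover, where it could no longer be tested and so was not called. List length is the only measure of depth here, and the reads behind a peak were not used.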
